A study of Mus musculus with 3 samples.

Results

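Axon guidance genes encode ligands that steer growing cell processes, the receptors that read them and a few proteins of the growth cone, the moving tip of an axon. Here 57 such genes were followed in endothelial cells: 17 semaphorins, 8 plexins, 8 ephrins, 10 Eph receptors, 3 Slits, 3 Robos, 2 netrins, 5 netrin receptors and Gap43. They are 57 of the 23442 genes in the files, chosen by name, except that Gap43 was added because it was lower in the library without Scl. The contrast of that library with wild type was therefore in view when the genes were chosen, and its values below are a description.

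RNA came from mouse embryonic stem cells grown for 2 days in pre-embryoid-body medium and then as embryoid bodies, floating aggregates in which stem cells differentiate, for 4.75 days. Cells positive for Tie2 and CD31 and negative for CD41 were sorted as endothelial. There was a wild-type group (WT), a group lacking Scl, now called Tal1 (SclKO), and a knockout labelled Gata1&2KO (Gata12KO), with 1 library each, and the series looks for targets of these factors. Scl is a transcription factor that blood formation requires, and the zinc-finger proteins Gata1 and Gata2 work with it. The labels do not say how many clones or cultures stand behind a library.

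Depth was 28.3M to 50.3M fragments per library, as implied by the deposited bounds. Tal1 had 51.0, 1.59 and 38.7 FPKM (mapped fragments scaled to transcript length and library size) in WT, SclKO and Gata12KO. Gata1 (4.64 and 5.66) and Gata2 (12.1 and 44.9) were not lower in the library labelled Gata12KO than in WT, so the labelled knockout was not visible in these levels. All 10 endothelial markers were present in every library, with summed levels of 479, 257 and 572 FPKM in WT, SclKO and the library labelled Gata12KO, and 4 of them were lower in SclKO, while Kdr and Flt1 were higher in the library labelled Gata12KO than in WT. Blood markers summed to 225, 1.97 and 35.1 FPKM, and 11 of the 11 expressed were lower in SclKO and 10 in the library labelled Gata12KO, while Ptprc was listed at 0 in WT and SclKO. The 1 not lower in the library labelled Gata12KO was Itga2b, the gene of CD41, with 22.8, 0.333 and 17.6 FPKM in the same order. Its transcript was thus present in WT although cells were sorted as negative for CD41. Mesenchyme markers summed to 83.7, 176 and 38.3 FPKM, with 5 of 9 higher in SclKO and none lower, and with 2 lower and 1 higher for the library labelled Gata12KO. In bulk samples, fewer cells of a type and less RNA per cell cannot be told apart, and the part these cell markers have in the results below was not tested.

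Guidance molecules act by contact between cells or as secreted ligands. Semaphorins signal through plexins, with neuropilins as co-receptors for the secreted class. Ephrins sit on one cell and Eph receptors on its neighbour, and both can signal. Slits act on Robo receptors, and netrins on Unc5 proteins, Dcc and neogenin. Blood vessels use the same molecules: plexin D1, Robo4 and Unc5b are known in endothelium, and ephrin-B2 and its receptor EphB4 mark arteries and veins.

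Calls of higher or lower rest on 3 conditions: a level of 1 FPKM or more in any of the 3 libraries, a ratio log2((FPKM + 1)/(FPKM + 1)) of 2-fold or more, and deposited bounds that do not meet. The bounds cover counting error alone. There were no replicates, so no p-value is given, and every difference describes these libraries. All 57 genes were measured and 34 reached 1 FPKM in at least 1 library. The other 23 reached 0.828 FPKM at most, in Plxna4 of SclKO.

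Among the 34, the SclKO library stood apart from WT in both directions. It had 9 higher genes, Epha4, Unc5b, Sema5a, Efnb1, Ephb3, Efnb3, Ephb2, Slit3 and Unc5a, and 7 lower ones, Gap43, Plxnc1, Efna1, Sema6a, Sema6d, Robo4 and Sema6b, with 18 between. Over all 11092 expressed genes 2.14% were higher and 4.26% lower. Since the genes were chosen with this contrast known, nothing is read from that difference in share. Efnb3 and Unc5a reached 1 FPKM in SclKO only, so they could pass the minimum only by being high there. In the library labelled Gata12KO against WT, 0 of 34 genes were higher and 0 lower, where 0.784% and 3.78% of all expressed genes were. At those rates a list of this size would hold few calls, and this 0 is not a result about guidance genes.

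**Figure D1:**
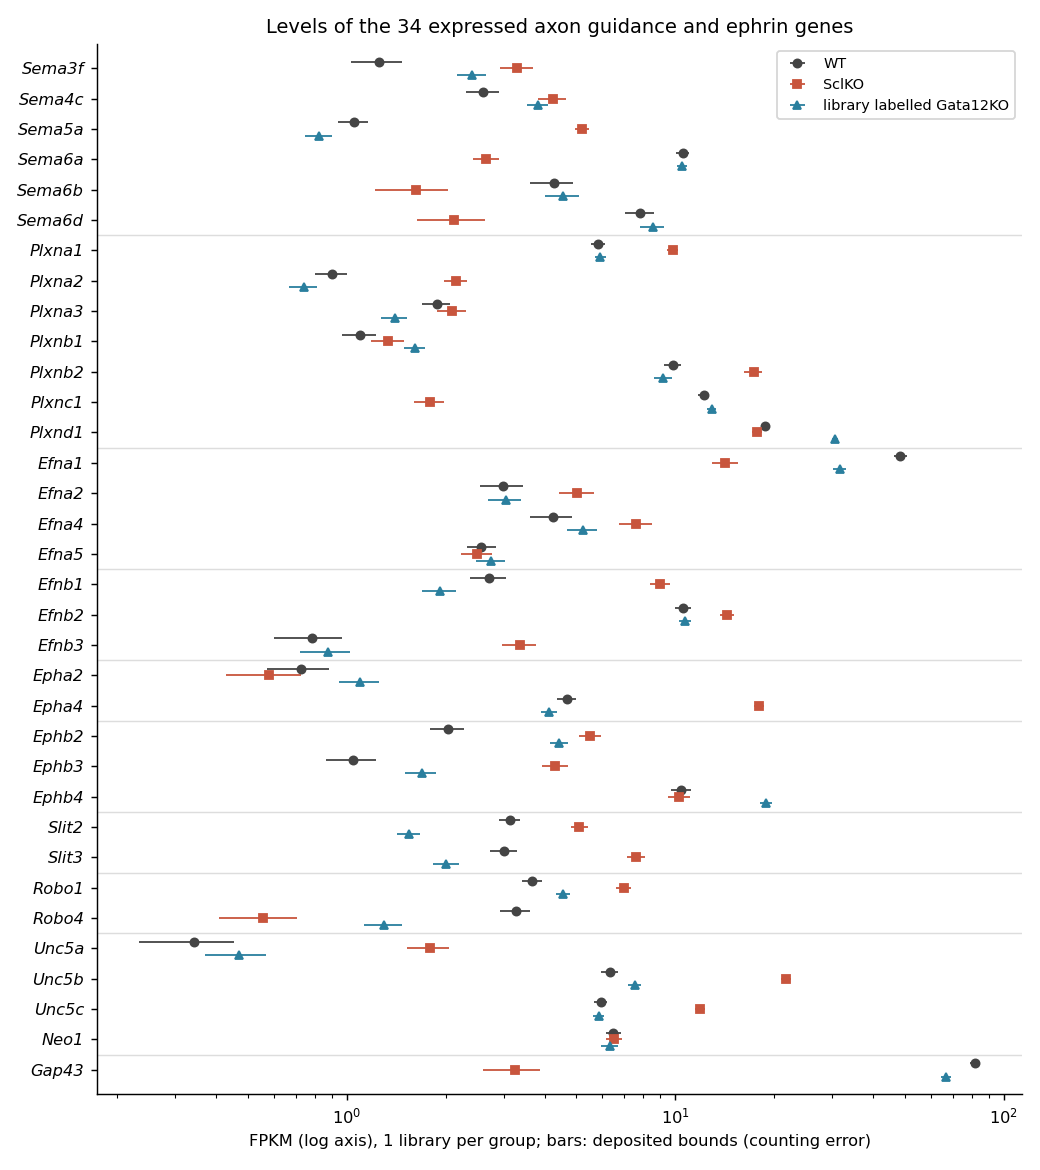
FPKM on a log axis of the 34 guidance genes that reached 1 FPKM in any library, by family, with 1 point per library (WT, SclKO and the library labelled Gata12KO) and bars for the deposited bounds. The SclKO squares lie left of the other points for Gap43 (3.24 against 81.8 and 66.7), Plxnc1 (1.79 against 12.2 and 12.9) and Sema6a, and right of them for Epha4 (18.0 against 4.68 and 4.13) and Unc5b.

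Gap43, a membrane-attached protein of growth cones, had the highest level of all 57 genes in WT, with 81.8 FPKM (bounds 78.8 to 84.9). In SclKO it had 3.24 (2.60 to 3.88) and 66.7 in the library labelled Gata12KO (64.5 to 68.9), resting on 2884, 101 and 3806 fragments. It was 25.2-fold lower in SclKO than in WT (log2 ratio -4.29). Its value lay above 94.1% of expressed genes both for WT and for the library labelled Gata12KO, but above 26.3% in SclKO. It is given as 1 transcript of 3 exons and 1301 nt at chromosome 16, 42248674 to 42340764 on the reverse strand of mm9. Other neuronal genes gave no such level. Of 14 markers of neurons and neural progenitors 3 reached 1 FPKM, and none was called. In WT, SclKO and the library labelled Gata12KO, Stmn2 had 3.87, 1.90 and 2.36 FPKM. Nes had 3.07, 3.43 and 6.025 and Elavl4 0.930, 0.585 and 1.30 in the same order. The whole list summed to 10.2, 8.64 and 12.0 FPKM.

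Among the expressed semaphorins, the genes followed here from class 6 differed from the rest. The class 6 genes, membrane-spanning ligands of class A plexins, were lower in SclKO for the 3 followed here, Sema6a, Sema6b and Sema6d, which summed to 22.6 FPKM in WT, 6.41 in SclKO and 23.6 in the library labelled Gata12KO. Sema6a stood at 10.5 FPKM (10.1 to 11.0) in WT, at 2.66 (2.42 to 2.90) in SclKO and 10.5 in the library labelled Gata12KO (10.1 to 10.8). Sema6d had 7.81, 2.13 and 8.53 in the same order, and Sema6b 4.26, 1.63 and 4.56. The remaining class 6 gene, Sema6c, is not among the 57 and stayed below 1 FPKM. It went the other way, with 0.202 FPKM (0.104 to 0.301) in WT, 0.615 (0.434 to 0.796) in SclKO and 0.527 in the library labelled Gata12KO. For Sema6a, Sema6b and Sema6d, SclKO was the low library and its bounds were clear of the others. Sema6d lost its call when 5 rather than 1 was added to each FPKM, and with its highest transcript entry alone. Sema6b lay at the 2-fold limit (log2 ratio -1.002 in SclKO against WT), and 5 alternative settings took it out of the call. The other genes next to the limit were Robo4 (-1.45) inside and Epha2 (-0.13) and Plxnd1 (-0.08) outside on the low side, with Unc5a (1.05) and Slit3 (1.10) inside on the high side.

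Expressed semaphorins of other classes were higher or between in SclKO. Sema5a, a membrane protein with thrombospondin repeats, stood at 1.05 FPKM (0.938 to 1.16) in WT, at 5.21 (4.94 to 5.47) in SclKO and 0.824 in the library labelled Gata12KO (0.746 to 0.902), so that SclKO was 4.96-fold above WT. Sema3f, a secreted ligand of neuropilin 2, had 1.25, 3.30 and 2.41 FPKM, and Sema4c, a ligand of class B plexins, 2.61, 4.24 and 3.82. Both were between, and Sema3f at a log2 ratio of 0.93 was the gene closest under the limit on the high side. In SclKO, Sema5a held 23.2% of the summed semaphorin FPKM and Sema6a 11.9%, while in WT these shares were 3.5% and 35.2%. The other 11 semaphorins stayed below 1 FPKM in every library, among them Sema3e, the ligand of plexin D1, at 0.152, 0.244 and 0.169 FPKM. Sema3b (0.756, 0.424 and 0.627 FPKM), Sema3c (0.133, 0.0149 and 0.0871) and Sema3g (0.0452, 0.0101 and 0.248) were lowest in SclKO. At these low levels the bounds of Sema3b overlapped, and Sema3c and Sema3g rested on 2 and 1 fragments in SclKO.

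Of the plexins, the semaphorin receptors, Plxnc1 was the 1 lower gene in SclKO among 7 expressed. This receptor of the membrane-anchored semaphorin Sema7a stood at 12.2 FPKM (11.7 to 12.7) in WT, at 1.79 (1.60 to 1.98) in SclKO and 12.9 in the library labelled Gata12KO (12.5 to 13.3), a 6.82-fold lower value in SclKO. Its ligand gene Sema7a had 0.0102, 0.103 and 0.179 FPKM. Plxnd1, the endothelial plexin, stood at 18.8 FPKM (18.2 to 19.4) in WT and at 17.7 (17.1 to 18.3) in SclKO, with overlapping bounds, and 30.6 in the library labelled Gata12KO (30.0 to 31.2). It led the family in every library, with 36.9%, 33.4% and 48.9% of the summed plexin FPKM. Plxnb2 had 9.81, 17.3 and 9.19 FPKM and Plxna1 5.82, 9.82 and 5.91, both highest in SclKO without reaching 2-fold. Plxna2, Plxna3 and Plxnb1 ranged from 0.740 to 2.15 FPKM. Summed over the family, plexin levels were 51.0, 53.1 and 62.6 FPKM, so the SclKO sum was close to WT while its make-up was not: Plxnc1 went from 23.9% of it in WT to 3.4% in SclKO, and Plxnb2 from 19.2% to 32.6%.

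Plxnb2 is listed as 2 entries of 38 exons each that share their 3' end at chromosome 15, base 88985979 of mm9, on the reverse strand, and begin at 89004280 and, 6938 bases upstream, at 89011218. The entry with the downstream start stood at 9.31 FPKM (8.87 to 9.76) in WT, at 8.08 (7.55 to 8.61) in SclKO and 6.73 in the library labelled Gata12KO (6.40 to 7.06). The entry with the upstream start had 0.493 (0.354 to 0.632), 9.24 (8.69 to 9.79) and 2.46 (2.23 to 2.69). The higher Plxnb2 sum in SclKO thus lay in the entry with the upstream start, which held 53.3% of the gene's FPKM there. Its share was 5% in WT, while the library labelled Gata12KO had 26.8%. How Cufflinks divides 50 bp reads between overlapping entries is an estimate, and the error of that division beyond the deposited bounds was not tested.

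Promoter windows from RefSeq (GRCm38.p6, 250 bases before to 50 after a start) are shown for 4 genes picked after their values were seen. Plxnc1 and, further on, Epha4 and Unc5b have 1 window each and were called in SclKO against WT, and Plxnb2 has the 2 starts just described. The windows are those of Plxnc1, at chr10:94944796-94945095, and both starts of Plxnb2, upstream at chr15:89180739-89181038 and downstream at chr15:89173902-89174201. All are on the reverse strand and written 5' to 3', and capitals mark GATA and CANNTG, the core letters read by GATA factors and by basic helix-loop-helix factors such as Scl, on either strand and with overlapping matches counted separately. The 2 Plxnb2 windows lie 6837 bases apart, close to the distance in the files, which use another build.
Plxnc1: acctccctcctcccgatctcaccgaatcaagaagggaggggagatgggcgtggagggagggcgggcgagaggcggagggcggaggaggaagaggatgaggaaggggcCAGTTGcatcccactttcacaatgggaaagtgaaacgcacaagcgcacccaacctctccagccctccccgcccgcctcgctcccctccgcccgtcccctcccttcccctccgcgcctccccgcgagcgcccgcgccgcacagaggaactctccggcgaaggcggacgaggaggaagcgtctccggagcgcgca
Plxnb2 upstream start: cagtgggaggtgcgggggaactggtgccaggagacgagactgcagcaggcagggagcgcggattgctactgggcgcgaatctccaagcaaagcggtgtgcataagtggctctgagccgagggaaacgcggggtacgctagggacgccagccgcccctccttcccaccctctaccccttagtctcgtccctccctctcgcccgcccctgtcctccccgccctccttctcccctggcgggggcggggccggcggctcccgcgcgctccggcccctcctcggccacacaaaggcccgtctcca
Plxnb2 downstream start: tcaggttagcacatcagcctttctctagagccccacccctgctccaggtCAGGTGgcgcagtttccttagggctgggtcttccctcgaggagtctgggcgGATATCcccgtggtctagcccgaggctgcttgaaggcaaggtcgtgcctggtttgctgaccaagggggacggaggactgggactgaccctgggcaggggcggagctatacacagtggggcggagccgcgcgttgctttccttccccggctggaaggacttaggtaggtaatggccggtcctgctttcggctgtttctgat
The Plxnc1 window holds 1 CANNTG and no GATA. The upstream Plxnb2 window holds neither, and the downstream one holds 2 GATA matches and 1 CANNTG. Of 32851 windows of all genes, 57.9% hold GATA, 72.3% CANNTG and 17.2% CAGATG. Of the 62 windows of the 47 guidance genes in the table, 40.3%, 43.5% and 6.5% do. Genes lower in SclKO had 8 windows, of which 2 held GATA and 4 CANNTG, and genes higher there had 8 as well, of which 3 held GATA and 2 CANNTG. These windows cover 5 of the 7 lower genes, without Gap43 and Sema6a, and 8 of the 9 higher ones, without Efnb3. A match is a string of letters and not a bound site.

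**Figure D2:**
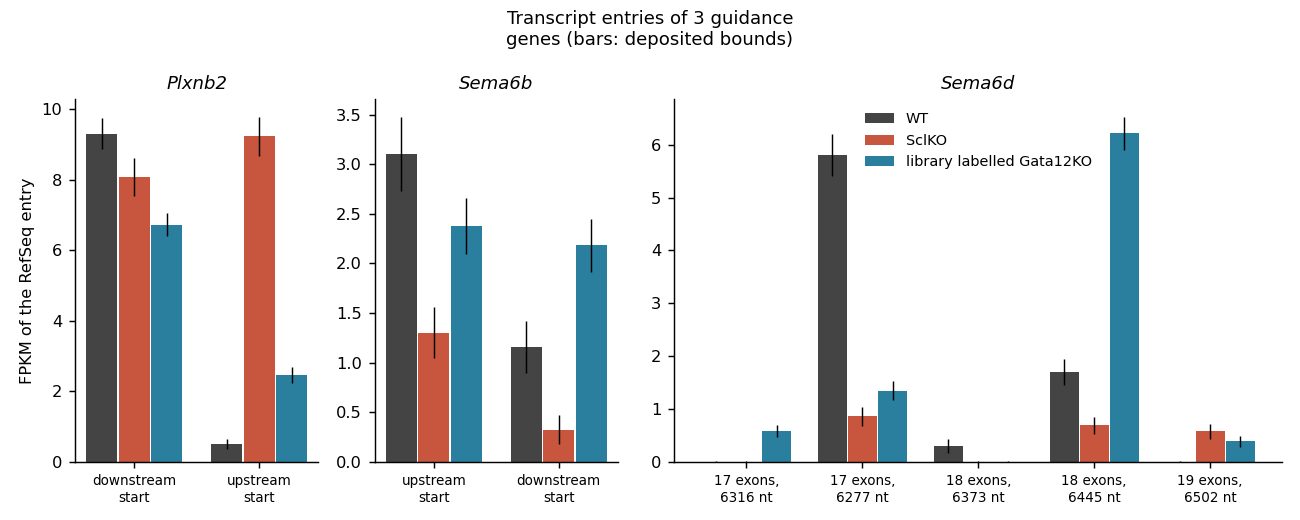
FPKM of each RefSeq transcript entry of Plxnb2, Sema6b and Sema6d in WT, SclKO and the library labelled Gata12KO, 1 library each, with bars for the deposited bounds. The upstream-start entry of Plxnb2 is at 9.24 in SclKO against 0.493 in WT, and the leading Sema6d entry is the one of 6277 nt in WT (5.81) and the one of 6445 nt in the library labelled Gata12KO (6.22).

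Sema6d also changed in which entry led. It has 5 entries with the same ends and 17 to 19 exons. In WT the entry of 17 exons and 6277 nt had 5.81 FPKM (5.42 to 6.20) and the entry of 18 exons and 6445 nt had 1.70 (1.45 to 1.95). In the library labelled Gata12KO these were 1.34 (1.16 to 1.52) and 6.22 (5.90 to 6.53), while the gene's sum was 7.81 and 8.53. The sum alone showed no difference between those libraries, and the estimates for the entries did. In SclKO the same entries had 0.861 (0.683 to 1.04) and 0.692 (0.530 to 0.854), with overlapping bounds. As the entries share both ends, their values rest on how reads were divided, and the error of that was not tested. Sema6b, with 2 starts, had its upstream entry ahead in WT and SclKO. Bounds of its 2 entries overlapped in the library labelled Gata12KO. Sema6b had 3.10 FPKM from the upstream and 1.16 from the downstream start in WT, 1.30 and 0.324 in SclKO, and 2.38 and 2.18 in the library labelled Gata12KO. Of the other guidance genes with several entries, Efna1, Efna5, Ephb4 and Neo1, all above 1 FPKM, kept 1 leading entry in all 3 libraries. Ephb1, below 1 FPKM, did not: its entry of 15 exons held 100% of the gene in WT and SclKO, and 37.9% in the library labelled Gata12KO. Efna5 and Neo1 also had a second entry near 0 in WT and SclKO that held 3.7% and 6.6% of the gene in that library. The second entry of Efna1 stayed near 0 in all 3. Whether reads of that library were divided differently between entries was not tested.

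Among the ephrins of the A kind, 1 of 4 expressed genes was lower in SclKO and none higher. Efna1, a lipid-anchored ligand found on vessels, stood at 48.5 FPKM (46.3 to 50.7) in WT, at 14.2 (13.0 to 15.5) in SclKO and 31.6 in the library labelled Gata12KO (30.2 to 33.0). All 3 sets of bounds were apart, with WT highest and SclKO 3.41-fold below it. Efna2 (2.99, 5.03 and 3.05 FPKM) and Efna4 (4.23, 7.62 and 5.23) were highest in SclKO but between, and Efna5 (2.57, 2.48 and 2.75) had overlapping bounds throughout. Efna1 made up 83.1% of the summed ephrin-A level in WT, 47.1% in SclKO and 72.8% in the library labelled Gata12KO, and that sum was 58.3, 30.2 and 43.4 FPKM. Efna3 stayed below 1 FPKM, at 0.0304, 0.827 and 0.789 with about 1 fragment in WT.

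Of the 3 membrane-spanning ephrin-B ligands, 2 were higher in SclKO. Efnb1 stood at 2.71 FPKM (2.37 to 3.04) in WT, at 8.995 (8.35 to 9.64) in SclKO and 1.92 in the library labelled Gata12KO (1.70 to 2.14), and SclKO was 3.32-fold above WT. Efnb3 had 0.783, 3.36 and 0.873 FPKM. Efnb2, the arterial ephrin, was the most abundant of the 3 in every library, at 10.6 FPKM (10.0 to 11.2) for WT, 14.4 (13.6 to 15.1) for SclKO and 10.7 in the library labelled Gata12KO (10.2 to 11.1). Its share of the ephrin-B sum was 75.2%, 53.7% and 79.3%. The sum itself was 14.1, 26.7 and 13.5 FPKM.

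Among Eph receptors, Epha4, which binds ephrins of both kinds, had the largest log2(FPKM + 1) ratio of any guidance gene on the high side. It stood at 4.68 FPKM (4.37 to 4.99) in WT, at 18.0 (17.3 to 18.6) in SclKO and 4.13 in the library labelled Gata12KO (3.903 to 4.365), a 3.84-fold higher value in SclKO than in WT (log2 ratio 1.74). Fragments behind these values numbered 909, 3114 and 1282. Epha2, the usual partner of ephrin-A1, had 0.726, 0.578 and 1.10 FPKM, and Epha1, Epha3, Epha5 and Epha7 stayed below 1 FPKM. Epha4 accounted for 68.4% of the EphA sum in WT and 90.4% in SclKO. The gene lies at chromosome 1, 77363760 to 77511663 on the reverse strand of mm9, with 18 exons. Its RefSeq window, at chr1:77515039-77515338 of GRCm38.p6 on the reverse strand, holds 1 GATA, in capitals, and no CANNTG, and is shown because its log2 ratio was the highest.
Epha4: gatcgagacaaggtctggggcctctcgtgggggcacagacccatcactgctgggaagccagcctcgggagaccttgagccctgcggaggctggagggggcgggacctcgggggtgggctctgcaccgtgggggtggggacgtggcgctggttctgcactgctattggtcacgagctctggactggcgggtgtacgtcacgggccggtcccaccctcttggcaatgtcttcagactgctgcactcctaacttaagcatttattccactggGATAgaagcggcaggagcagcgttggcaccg

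The EphB receptors differed by member. Ephb4, the venous receptor of ephrin-B2, stood at 10.4 FPKM (9.69 to 11.2) in WT and at 10.3 (9.47 to 11.1) in SclKO, and 18.9 in the library labelled Gata12KO (18.1 to 19.7), the 1 library that stood apart. Ephb2 stood at 2.03 FPKM (1.80 to 2.27) in WT, at 5.51 (5.10 to 5.93) in SclKO and 4.44 in the library labelled Gata12KO (4.16 to 4.72). Ephb3 had 1.05, 4.31 and 1.69 FPKM. Both were higher in SclKO, by 2.71-fold and 4.12-fold. The share of Ephb4 in the EphB sum was 76.1% in WT, 49.8% in SclKO and, for the library labelled Gata12KO, 74.8%. The EphB sums were 13.7, 20.6 and 25.3 FPKM. Efnb2 and Ephb4, the arterial and venous pair, were thus both between in SclKO, with log2 ratios of 0.41 and -0.02.

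**Figure D3:**
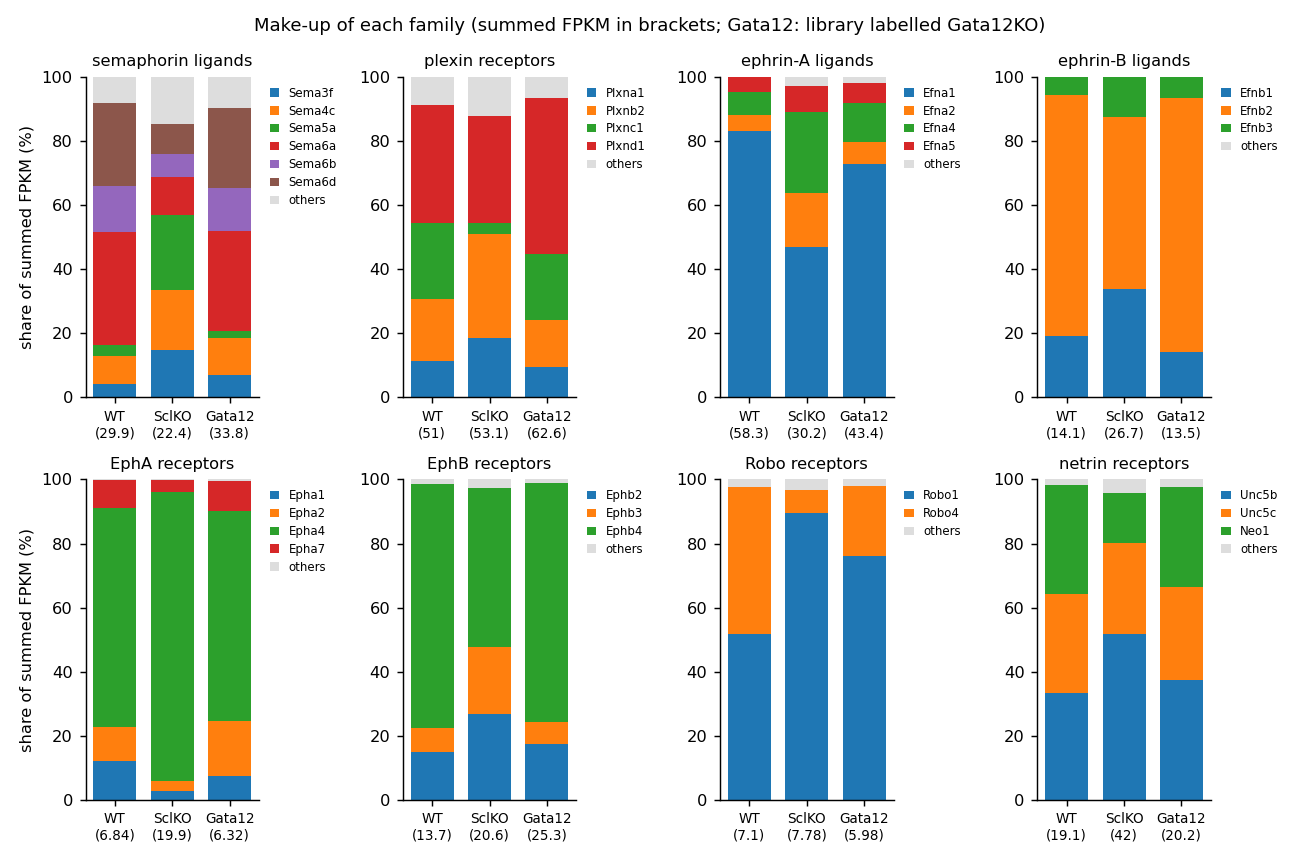
Share (%) of each gene in the summed FPKM of its family in WT, SclKO and the library labelled Gata12KO (Gata12), 1 library each, with the sum in brackets and members that never reach 5% in grey. Plxnc1 holds 23.9% of the plexin sum in WT and 3.4% in SclKO, Efna1 83.1% and 47.1% of the ephrin-A sum, and Robo4 46.0% and 7.2% of the Robo sum.

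Slit ligands and Robo receptors gave 1 higher and 1 lower gene in SclKO. Slit3 stood at 3.01 FPKM (2.73 to 3.29) in WT, at 7.61 (7.14 to 8.08) in SclKO and 2.01 in the library labelled Gata12KO (1.83 to 2.19). Slit2 followed the same order, with 3.13, 5.10 and 1.54 FPKM, and was between in SclKO against WT. For both Slits all 3 sets of bounds were apart, SclKO was highest and the library labelled Gata12KO lowest. Robo4, the endothelial Robo, stood at 3.27 FPKM (2.93 to 3.61) in WT, at 0.557 (0.407 to 0.707) in SclKO and 1.30 in the library labelled Gata12KO (1.13 to 1.47). WT was 5.87-fold above SclKO for Robo4, on 362 and 55 fragments. Robo1, a Slit receptor of neurons and many other cells, went the other way, with 3.67, 6.97 and 4.56 FPKM, and Robo2 stayed below 1 FPKM. Robo1 accordingly held 51.7% of the Robo sum in WT and 89.6% in SclKO, while the sum was 7.10 and 7.78 FPKM.

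Netrin receptors were above the netrins in level. Ntn1 and Ntn4 together had 0.165, 0.230 and 0.223 FPKM, and Ntn3, which is not among the 57, had 0.806, 0.809 and 0.491. The 5 receptors summed to 19.1, 42.0 and 20.2 FPKM. Unc5b, the receptor known in arterial and tip endothelium, stood at 6.33 FPKM (5.96 to 6.71) in WT, at 21.8 (21.0 to 22.5) in SclKO and 7.52 in the library labelled Gata12KO (7.20 to 7.84). SclKO was 3.44-fold above WT for Unc5b, on 1138 and 3490 fragments. Unc5c, its close relative, had 5.93, 11.9 and 5.84 FPKM, a 2.01-fold difference that fell under the limit on the log2(FPKM + 1) scale (0.90). Unc5a had 0.342, 1.79 and 0.470 FPKM. Neogenin (Neo1), which also binds repulsive guidance molecules, stood at 6.47 FPKM (6.13 to 6.82) in WT, at 6.52 (6.16 to 6.89) in SclKO and 6.32 in the library labelled Gata12KO (5.96 to 6.68), the most even values of the expressed guidance genes. Dcc, the attractive netrin receptor of axons, was at 0.0117 FPKM or less in each library. Unc5b lies at chromosome 10, 60225343 to 60294329 on the reverse strand of mm9, with 17 exons, and its RefSeq window at chr10:60831532-60831831 of GRCm38.p6, shown as that of the next highest log2 ratio, holds 2 GATA matches and no CANNTG.
Unc5b: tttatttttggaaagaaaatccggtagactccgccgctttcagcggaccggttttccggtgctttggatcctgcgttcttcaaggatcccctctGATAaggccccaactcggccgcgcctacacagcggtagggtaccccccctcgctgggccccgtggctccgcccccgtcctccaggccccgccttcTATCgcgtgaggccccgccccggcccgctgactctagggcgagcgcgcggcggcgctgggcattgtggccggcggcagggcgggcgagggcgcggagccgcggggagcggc

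**Figure D4:**
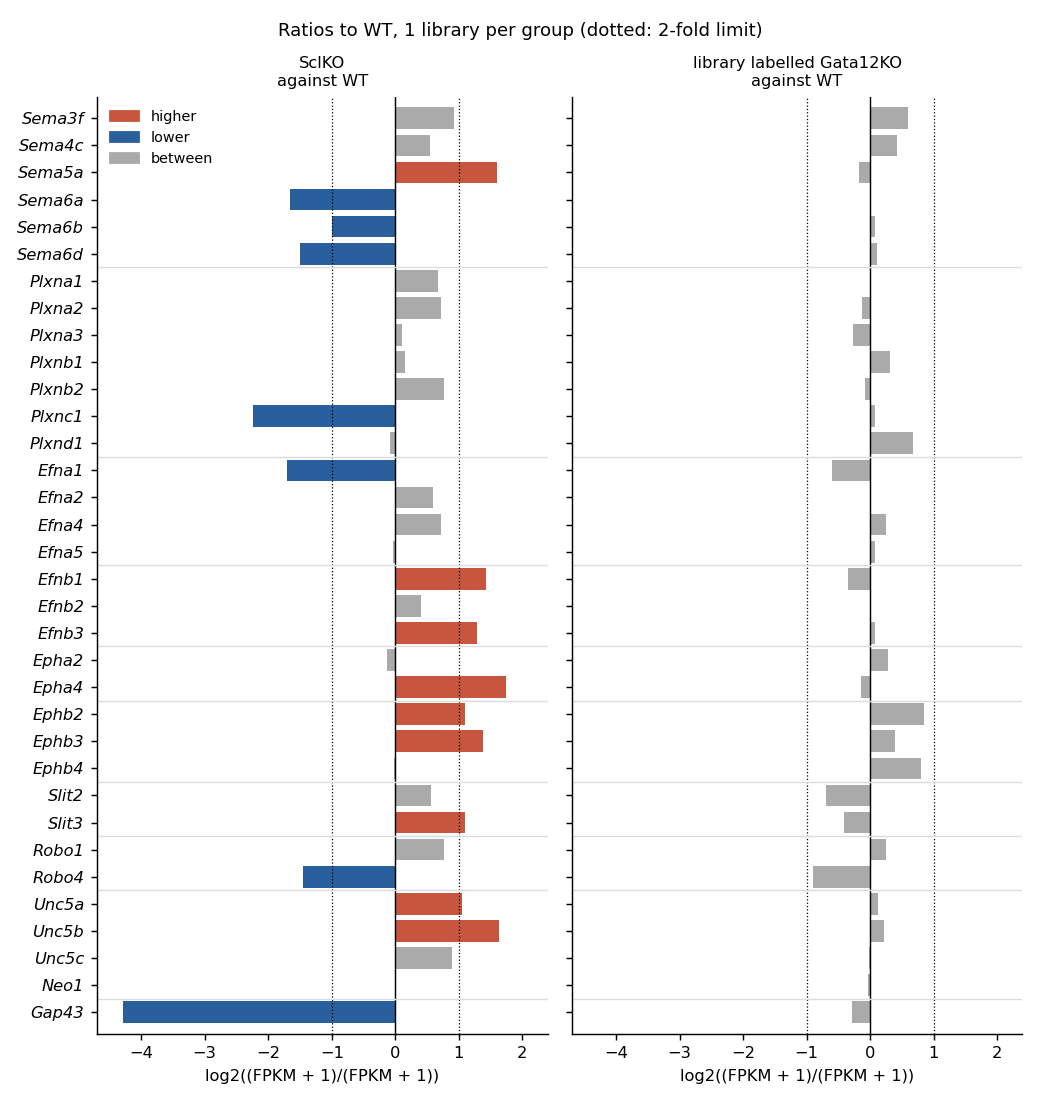
Log2 ratio of each of the 34 expressed guidance genes in SclKO (left) and in the library labelled Gata12KO (right) against the same WT library, with bars coloured by the size rule and dotted lines at the 2-fold limit. On the left 9 bars are higher and 7 lower, from -4.29 (Gap43) to 1.74 (Epha4), and on the right all bars lie between -0.89 (Robo4) and 0.84 (Ephb2).

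Over the 34 genes the median log2 ratio in SclKO against WT was 0.58, where that of all 11092 expressed genes was -0.03. Over all 57 it was 0.13, with 0 over all 23442 genes in the files. Ratios within 0.5 of 0 on the log2 scale were found for 8 of the 34, against 73.9% of all expressed genes. As the genes were chosen with this contrast known, nothing is read from these differences in median and spread. In the library labelled Gata12KO against WT the medians were 0.04 for the guidance genes and -0.08 for all, and 27 of 34 lay within 0.5, against 74.5%. Values on that side that were largest without a call were Robo4 (-0.89), Ephb2 (0.84), Ephb4 (0.80), Slit2 (-0.70) and Plxnd1 (0.67). By FPKM alone Robo4 was 2.52-fold and Slit2 2.03-fold lower than in WT, and Ephb2 2.18-fold higher, with bounds apart. They fell under the limit on the log2(FPKM + 1) scale. With each library rescaled by its total FPKM, 5 of the 37 that then reached 1 FPKM passed the limit as higher there, Ephb4, Ephb2, Plxnd1, Efna3 and Sema3f, where 11.1% of all expressed genes did. Entries under 300 nt held 66.7%, 72.4% and 56.5% of that total in WT, SclKO and the library labelled Gata12KO, so short transcripts largely set this scaling. Guidance transcripts are long, with a median of 5127 nt against 2750 nt for expressed genes of 300 nt or longer, and ratios followed length across genes. With that trend removed, the SclKO counts were again 9 higher and 7 lower and those of the library labelled Gata12KO again 0 and 0.

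The third comparison set the library labelled Gata12KO against SclKO and shares a library with each of the others. Here 6 of 34 genes were higher in the library labelled Gata12KO, with 3.40% of all expressed genes, and 7 were lower, with 3.77%. Higher were Gap43 (log2 ratio 4.00), Plxnc1 (2.32), Sema6a (1.65), Sema6d (1.61), Efna1 (1.10) and Sema6b (1.08). Lower were Epha4 (-1.88), Efnb1 (-1.77), Sema5a (-1.77), Slit3 (-1.52), Unc5b (-1.42), Slit2 (-1.26) and Efnb3 (-1.22). Slit2 was called here and not in SclKO against WT, with 5.10 FPKM in SclKO, 1.54 in the library labelled Gata12KO and WT in between at 3.13. The SclKO library again entered every call, so these ratios are not independent of those to WT. Efnb3 passed the minimum only through SclKO and could be called only as lower here, and Gap43 was added for its low value in SclKO.

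**Figure D5:**
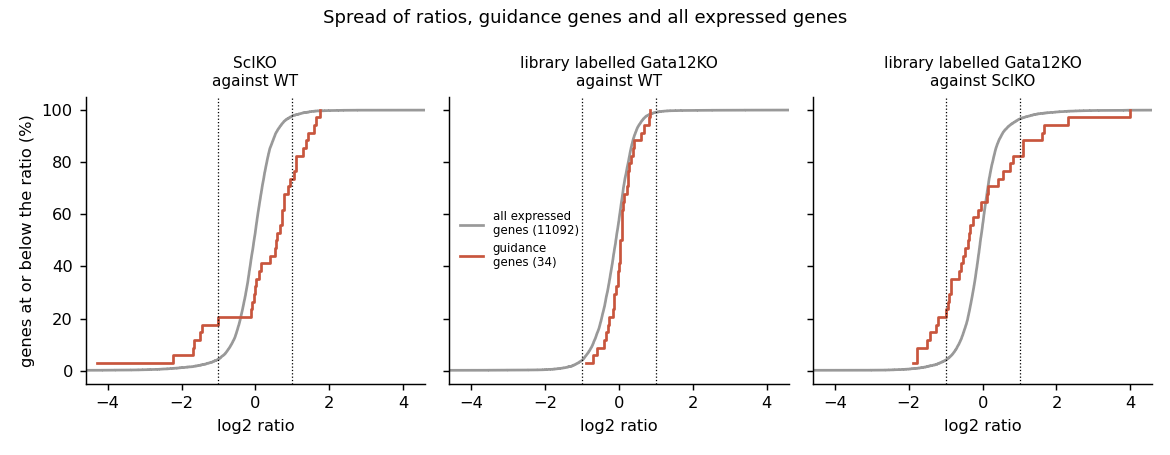
Cumulative share (%) of genes at or below each log2 ratio for the 34 expressed guidance genes and for all 11092 expressed genes in the 3 comparisons, with dotted lines at the 2-fold limit. In SclKO against WT the guidance genes reach both tails, with a step of 7 genes below the lower limit, and in the library labelled Gata12KO against WT none lies past a limit.

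Genes around these families were taken from lists of co-receptors, effectors and remaining family members. Of 14 further family members 1 reached 1 FPKM, Sema4g, with 3.27, 3.08 and 3.74 FPKM. Among 8 expressed co-receptors and other guidance proteins, Gpc1, a heparan sulfate proteoglycan that binds Slits, was higher in SclKO (6.42 FPKM in WT and 15.3 in SclKO), none was lower, and Flrt2, a ligand of Unc5 proteins, was higher in the library labelled Gata12KO (1.99 and 5.51). Nrp1, the neuropilin shared by semaphorin 3A and VEGF, had 56.4, 113 and 38.0 FPKM and lay at the limit in SclKO against WT (log2 ratio 0.99). Nrp2 had 17.0, 26.8 and 19.1 FPKM. Of 28 expressed intracellular effectors, 1 was higher in SclKO and 2 lower. The lower ones were Rnd2, which binds plexins, with 48.9, 14.8 and 22.4 FPKM in WT, SclKO and the library labelled Gata12KO, and Vav3, an exchange factor that acts below Eph receptors, with 17.1, 7.70 and 19.6. In the library labelled Gata12KO against WT, Rnd2 and Tiam1, a Rac exchange factor (42.1 and 20.5 FPKM), were lower and none was higher. Against SclKO, 3 effectors were higher, Vav3, Srgap1 (6.17 FPKM in SclKO and 15.0 in the library labelled Gata12KO) and Ablim1 (7.71 and 16.5), and 1 was lower. In that comparison Flrt2 was the 1 higher co-receptor and Nrp1 and Gpc1 were the 2 lower ones. The medians of the co-receptor and effector lists in SclKO against WT were 0.44 and -0.01. Across the full set of 11092 genes, the call rates for SclKO against WT were 2.14% on the high side and 4.26% on the low side. For the library labelled Gata12KO they were 0.784% and 3.78% against WT, and 3.40% and 3.77% against SclKO. At such rates lists of 8 and 28 genes would hold few calls. Whether the counts of these lists differ from those rates was not tested.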

How the data were processed

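Total RNA of 3 sorted cell populations went through Nugen's Encore Complete library kit and was sequenced as 50 bp reads, per the labels' protocols. The deposited files give FPKM with a lower and an upper bound for 30123 RefSeq entries per library, which the authors made with Cufflinks, per the file contents. The submitters' processing notes name TopHat2 2.0.4, Cufflinks 2.0.1, Cuffdiff, mm9 and hg19 with no role for each. Positions run past the end of chromosome 1 of the later build, and are given on mm9. Use of strand is not given in the sources consulted, and antisense reads cannot be told apart.

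Accessions were named from RefSeq (GRCm38.p6) for 29063 of 29646 and from GENCODE for a further 173. The library labelled Gata12KO gave another accession for 136 entries. These were joined by position and exon structure, and 134 whose symbols differed were not used. FPKM and bounds were summed over the entries of each gene. The bounds lie 2 Poisson SD from the FPKM, which gave the fragments behind each value and totals of 31.6M, 28.3M and 50.3M in WT, SclKO and Gata12KO. Ratios use a pseudocount of 1, which understates those of low genes. The size rule was tested on simulated Poisson libraries of 23442 genes, with 200 genes changed 0.25-, 0.4-, 2.5- or 4-fold. The changed genes were drawn only from those at 5 FPKM or more in the reference library. In SclKO against WT it called 100% of the genes at 0.25, 2.5 and 4 and 87.2% at 0.4, and 0 unchanged genes. These shares do not hold for genes that start lower, as Sema5a and Robo4 did in WT. Sema3f was 2.63-fold higher in SclKO with bounds apart and was not called. Simulated libraries of this kind hold counting error alone, so they say nothing of spread between cultures. No test was possible with 1 library per group. Every guidance gene with 10 FPKM or a call was named by rule, and around them genes with a call. The values of 1 effector gene are not reported here. The genes and lists were chosen with earlier results of these data known. Python 3.11.15, pandas 2.3.3 and statsmodels 0.14.6 were used.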

Additional observations from a re-analysis of the deposited data

How the results depend on the processing

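Of 411 recomputed ratios of named guidance genes that a setting could change, 218 moved by more than counting error and 193 did not, and no called value changed sign. A pseudocount of 5 lowered the SclKO against WT counts to 2 higher and 4 lower, the median to 0.31, and Gata12KO against SclKO to 3, 3 and -0.23. A pseudocount of 0.1 gave 1 higher and 1 lower in Gata12KO against WT and 11 lower against SclKO. With no minimum the medians were 0.13 (SclKO against WT) and -0.09 (Gata12KO against SclKO). A 1.5-fold limit gave 17 higher in SclKO (7.91% of all expressed genes), 4 higher (4.81%) and 3 lower (14.0%) in Gata12KO against WT, and 13 lower (11.4%) against SclKO. Taking the highest entry alone called 1 gene, Sema6d, higher in Gata12KO against WT. Rescaling to summed FPKM gave 5 higher there (median 0.63), and against SclKO 3 lower and a median of 0.37, a changed sign. That scaling moved the median of all genes in these comparisons to 0.51 and 0.65. Over entries of 300 nt or longer it gave 2 higher and medians of 0.28 and -0.26, with all genes at 0.18 and 0.08. In SclKO against WT the median of all genes went from -0.035 to -0.14 and 0.09 under these scalings. Removing the length trend turned the Gata12KO against WT median to -0.02. Calls made under every setting in SclKO against WT were 2 of 9 higher (Epha4 and Unc5b) and 4 of 7 lower (Gap43, Plxnc1, Efna1 and Sema6a). Over all genes, higher and lower calls (237 and 473) ranged from 83 to 877 and from 185 to 1253 in that comparison, from 22 to 1264 and 112 to 1555 (main 87 and 419) in Gata12KO against WT, and from 132 to 2080 and 115 to 1259 (main 377 and 418) against SclKO. The lower share of all calls went from 66.6% to 76.0% (summed FPKM) and 53.1% (300 nt or longer) in SclKO against WT. In Gata12KO against WT it went from 82.8% to 8.1% (summed FPKM), 44.2% (300 nt or longer), 71.2% (median ratio) and 50.9% (length trend removed), and against SclKO from 52.6% to 5.2%, 38.8%, 47.7% and 42.5%. No paired analysis was possible because each group has 1 library. The causes were not tested. Depth limits genes such as Robo4 (55 fragments in SclKO) and Unc5a (39 in WT).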
